A study of Mus musculus with 18 samples.

Results

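Skeletal muscle progenitors in bone marrow (BM) stroma were examined in single-cell RNA libraries of mouse fetal, neonatal and adult BM. The name covers all selected cells, although some of them held message of differentiating muscle or of other cell types, as described below. Cells were selected on measured values: a stromal cell was counted as a member where its unique molecular identifiers (UMIs, each standing for 1 captured mRNA molecule) summed over Pax7, Myf5, Myod1 and Myog reached 3 or more. This rule selected 1673 of 35219 stromal cells, out of 56201 cells in 9 mRNA libraries. The members came from 4 stromal libraries, 1 each from embryonic day 16.5 (E16.5), E18.5, postnatal day 0 (P0) and adult mice, which contributed 793, 229, 553 and 98 members respectively, and values given for the 4 stages follow this order of age. Each of these libraries held cells of C57B6/J mice that were sorted as CD45-Ter119-, a gate that removes leukocytes and erythroid cells, and each was stained with oligonucleotide-tagged antibodies that were sequenced alongside the mRNA (CITE-Seq). The other 5 mRNA libraries were hematopoietic progenitors (HPs) sorted as Lineage-Kit+ from the same 4 stages, and served here as a background. By the study's methods, fetal stroma was released with collagenase from the whole skeleton without the bones of the head, adult stroma from crushed tibias, femurs, pelvic bones and spines, and each library was a pool of several mice. Because each stage had 1 stromal library, and the fetal and adult bones differed, stage, library and bones of origin cannot be told apart, and no test between stages was possible. Neither the labels nor the files record whether a cell lay inside the marrow cavity, in bone or in tissue attached to it.

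Skeletal muscle is built from committed precursors. Pax7 is the paired-box transcription factor that marks muscle progenitors and the satellite cells that remain as stem cells of adult muscle. Myf5 and Myod1 are basic helix-loop-helix factors that commit cells to the muscle lineage, and Myog (myogenin) drives their exit from the cell cycle, fusion and formation of contractile fibers. These factors bind the E-box, a short DNA element written CANNTG in which N is any base. Notch signalling is known for holding muscle progenitors in the undifferentiated state.

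The sequence upstream of Myog, which separated the members into their main states, and of 3 genes described below is shown to place the E-boxes in front of genes that were high in the members. Cdh15 encodes the muscle adhesion protein M-cadherin, Chrna1 the alpha subunit of the muscle acetylcholine receptor, and Tnnt2 a troponin T of heart and developing skeletal muscle. Each stretch covers the 250 bases before the annotated start in RefSeq on GRCm38.p6 and is written 5′ to 3′ on the strand of the gene, with every CANNTG in capitals.
Myog promoter, chr1:134289754-134290003, plus strand: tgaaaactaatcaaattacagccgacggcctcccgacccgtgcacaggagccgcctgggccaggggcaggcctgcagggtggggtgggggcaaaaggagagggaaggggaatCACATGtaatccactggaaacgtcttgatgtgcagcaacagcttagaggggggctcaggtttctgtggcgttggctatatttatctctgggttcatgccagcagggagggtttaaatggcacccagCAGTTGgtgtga
Cdh15 promoter, chr8:122848124-122848373, plus strand: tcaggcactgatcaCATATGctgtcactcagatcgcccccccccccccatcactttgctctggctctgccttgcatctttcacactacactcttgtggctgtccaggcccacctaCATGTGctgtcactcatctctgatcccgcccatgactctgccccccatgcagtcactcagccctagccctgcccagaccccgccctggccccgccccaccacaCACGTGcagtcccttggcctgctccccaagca
Chrna1 promoter, chr2:73580339-73580588, minus strand: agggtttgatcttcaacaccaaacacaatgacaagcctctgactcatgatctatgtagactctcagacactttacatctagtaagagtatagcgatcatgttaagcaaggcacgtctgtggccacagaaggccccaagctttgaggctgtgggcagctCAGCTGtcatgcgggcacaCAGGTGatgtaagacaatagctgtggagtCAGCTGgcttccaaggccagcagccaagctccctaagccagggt
Tnnt2 promoter, chr1:135836084-135836333, plus strand: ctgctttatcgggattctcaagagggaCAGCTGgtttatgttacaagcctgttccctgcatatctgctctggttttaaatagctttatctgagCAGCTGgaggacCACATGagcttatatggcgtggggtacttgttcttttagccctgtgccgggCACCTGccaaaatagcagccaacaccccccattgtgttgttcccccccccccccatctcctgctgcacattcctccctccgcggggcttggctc
The Myog promoter held 2 E-boxes, CACATG at 138 and CAGTTG at 12 bases before the start. In Cdh15 the 3 E-boxes began at 236, 135 and 32 bases before the start, and in Chrna1 the 3 began at 92, 73 and 44 bases. Tnnt2 has 2 promoters in the table, and the one shown, which holds the most E-boxes, had 4, at 223, 157, 145 and 94 bases before the start. CAGCTG, which is 1 of the forms of CANNTG and reads the same on both strands, occurred at 2 places each in the Chrna1 and Tnnt2 stretches and not in those of Myog and Cdh15. Over all 32851 promoters of the table, 66.2% held CANNTG and 13.0% held CAGCTG in these 250 bases. CAGCTG was in 17 of 38 promoters (44.7%) of the contractile gene list and 9 of 27 (33.3%) of the differentiation list, against 1 of 14 (7.14%) for surface and signalling genes of progenitors and 1 of 15 (6.67%) for cell cycle genes. These promoters belong to 32, 15, 11 and 15 genes in the same order, so some genes count more than once. CANNTG was in 84.2%, 81.5%, 64.3% and 40% of them. A match describes the letters of the sequence and not binding by a factor.

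The 4 stromal libraries held 6267 to 14084 cells and 91868751 to 194892476 UMIs. Members had a median of 16236, 15855, 16963 and 6993 UMIs at the 4 stages, against 12589, 15586, 13429 and 11932 in the other stromal cells. Adult members were thus the shallowest and lay below their own library's other cells, whereas E16.5 and P0 members lay above theirs. The median mitochondrial share was 3.15%, 4.37%, 4.78% and 4.63% in members and 2.88% to 4.03% in other stromal cells. Of the members, 19, 1, 10 and 0 (2.40%, 0.437%, 1.81% and 0%) carried a barcode that also occurred in another library. Among the other cells of the same libraries the shares were 1.59%, 1.64%, 1.46% and 1.36%. None of these members' barcodes belonged to a member elsewhere, which says little where so few are shared. Across all libraries, 56201 cells carried 54831 distinct barcodes, 1102 of which occurred in 2 or more libraries.

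The share of stromal cells that met the rule was highest at E16.5 and lowest in adults. At E16.5, 793 of 8226 cells (9.64%, exact Clopper-Pearson 95% interval 9.01 to 10.3) were members. At E18.5 the share was 3.45% (3.02 to 3.92) of 6642 cells and at P0 3.93% (3.61 to 4.26) of 14084 cells, and these intervals overlapped. In adult stroma 1.56% (1.27 to 1.90) of 6267 cells were members, below the interval of every earlier stage. All intervals in the text are 95% intervals and cover counting error only, not the spread between mice or libraries. E16.5 was also highest and adults lowest when every cell was thinned to 2000 UMIs and the rule applied to the thinned counts, where the shares were 3.23%, 0.830%, 1.09% and 0.535%. Thinned members were mostly cells rich in Myog, which led in 93.9%, 78.8% and 83.1% of them at the 3 earlier stages. With Myog left out of the sum the shares were 7.62%, 2.94%, 3.29% and 1.55%. Cells just inside the rule, with exactly 3 UMIs, numbered 99, 32, 90 and 16 at the 4 stages, and cells just outside it, with exactly 2, numbered 86, 29, 106 and 26. Cdh15, which the rule did not use, was at 91.5, 127, 119.8 and 193 CPM in the cells with exactly 3 and 81.9, 85.7, 91.0 and 159.7 CPM in those with exactly 2. In the HP libraries, 4 of 4752 cells of E16.5 replicate 2 met the rule, and 0 of 560, 3477, 6208 and 5985 cells did so in the others. The latter allows shares of up to 0.536%, 0.0863%, 0.0483% and 0.0501% when 3 counts of the total are taken as the limit, with exact upper limits of 0.657%, 0.106%, 0.0594% and 0.0616%. Being separate sorts, the HP libraries do not measure free muscle RNA within the stromal libraries. In CF1, a P0 stromal cluster of the authors, 116 of 1095 cells held 1 or 2 rule UMIs, whereas 2 of 6208 P0 HP cells held any.

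**Figure D1:**
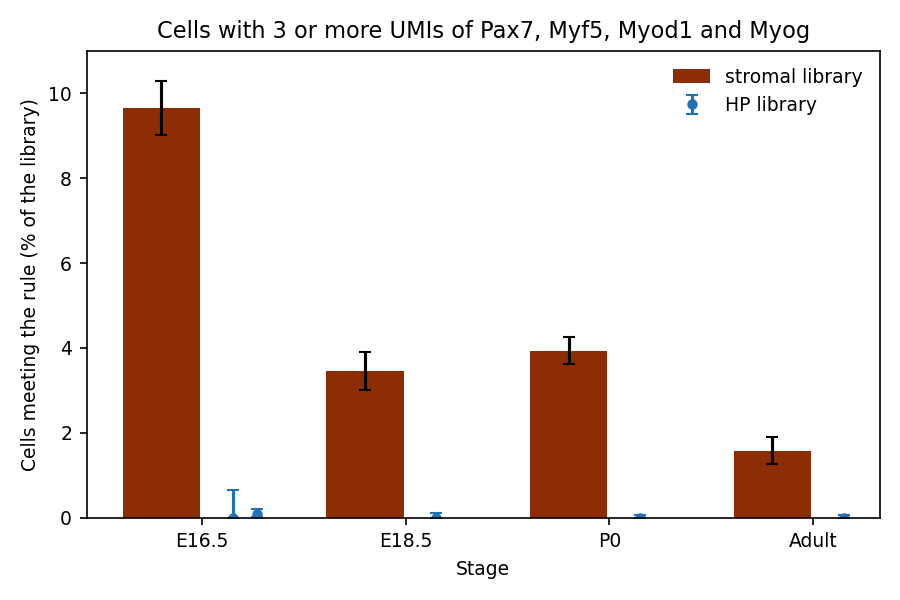
Share of cells with 3 or more UMIs of Pax7, Myf5, Myod1 and Myog (y axis, percent of the library) by stage (x axis), with bars for the stromal libraries, points for the HP libraries and error bars for exact 95% Clopper-Pearson intervals, which cover counting error only. The stromal share ran from 9.64% at E16.5 to 1.56% in adults, and the HP points lay at or near 0.

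Members concentrated in few of the clusters that the authors deposited, whose names are carried in the files as short codes. At E16.5, P1i held 513 members (64.7%) and P-2 held 260 (32.8%), and every 1 of the 260 cells of P-2 was a member. At E18.5, P1 held 218 of 229 members (95.2%), at P0 P3 held 530 of 553 (95.8%), and in adults P1 held 81 of 98 (82.7%). These codes, each with at least 10% of its stage's members, are called muscle codes here. Members made up 74.9% of the 685 cells of P1i, 82.6% of the 264 cells of E18.5 P1, 72.6% of the 730 cells of P3 and 66.4% of the 122 cells of adult P1. Other codes with the letter P were not rich in members. P2 at E18.5, with 0 members in 124 cells, held 1580.0 CPM (UMIs of a gene scaled to 1000000 UMIs of the summed cells) of the pericyte marker Rgs5 and 461 CPM of smooth muscle myosin Myh11, and P4 in adults, with 1 member in 170 cells, held 4453 and 1862 CPM. Because clusters were made from the most variable genes, the 4 rule genes, where among them, may have helped to define the codes, and the overlap is a description.

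Cells of the muscle codes that missed the rule also held message of muscle genes. At E16.5, 172 such cells, with a median of 11434 UMIs, had 93.8 CPM of Cdh15 against 122 in members of the same codes and 0.669 in stromal cells outside them. In adult P1, 41 cells missed the rule, with a median of 5811 UMIs, and had 182 CPM of Cdh15 and 619.7 CPM of Chodl (chondrolectin, a membrane lectin), against 288 and 616 CPM in the members there. Pax7, a rule gene, was at 122 against 447 CPM. The rule therefore left out cells of the same codes with fewer UMIs of its 4 genes, and the shares above are of cells with detected message.

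Members outside the muscle codes stood apart. They numbered 20, 11, 23 and 17 at the 4 stages, had a median of 25198, 26326, 25142 and 18275 UMIs, which was above the median of all members of each stage. In adults these 17 cells held 337752 of the 868314 member UMIs, with cartilage markers at 26161 CPM against 1059 CPM in members of P1, and endothelial markers at 746 against 11.3 CPM. Cell cycle genes followed the same split, at 1057 against 94.2 CPM. At P0, pericyte and smooth muscle markers were at 4266 CPM in the 23 members outside P3 and 1181 CPM in those inside it. Whether these droplets held more than 1 cell was not tested. Adult values below are of all 98 members unless P1 is named.

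The gene with the most UMIs among the 4 separated the members into groups, called states here, whose shares shifted with stage. Where found, Pax7, Myf5 and Myod1 had medians of 2 or 3 UMIs per cell at every stage, so a lead among them can rest on few UMIs. Myog held 78.1%, 68.0% and 72.4% of all rule UMIs of members at the 3 earlier stages. Myog led in 45.0%, 24.9%, 28.9% and 0% of members, while Pax7 led in 18.0%, 20.1%, 21.2% and 53.1%. Myf5 led in 17.5%, 27.1%, 26.8% and 18.4%, Myod1 in 13.0%, 13.5%, 14.8% and 23.5%, and the remainder were tied. All 260 members in P-2 at E16.5 were led by Myog, whereas P1i was mixed, with 141 led by Pax7, 137 by Myf5, 96 by Myod1 and 90 by Myog. Hence at E16.5 the authors' clustering set most Myog-led cells apart, and at E18.5 and P0 the Myog-led and Pax7-led cells shared 1 code. Since the rule used these genes, their shares are descriptions.

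**Figure D2:**
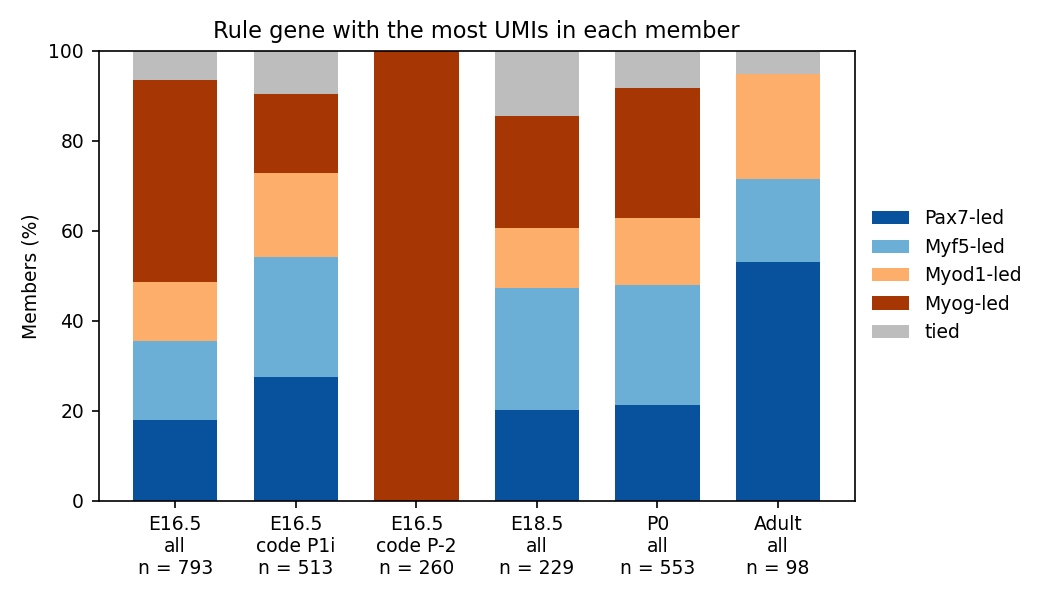
Share of members (y axis, percent) led by each of the 4 rule genes, or tied, for all members of each stage and for the E16.5 codes P1i and P-2 (x axis, with the number of members). Myog-led members made up 45.0% at E16.5 and 0% in adults, where Pax7-led members made up 53.1%.

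Among the rule genes themselves, Pax7 was at 66.4, 94.9, 79.5 and 341 CPM in members at the 4 stages. Myf5 was at 64.8, 104, 96.1 and 196 CPM and Myod1 at 130.5, 101, 92.8 and 237 CPM. Myog was at 931, 638, 705 and 5.76 CPM, so that it was abundant in the 3 earlier stages and at 5 UMIs in the whole adult group. A Pax7 UMI was found in 49.2%, 69.0%, 60.4% and 90.8% of members, and a Myog UMI in 50.6%, 32.8%, 36.0% and 3.06%. Where Myog was found its median was 31, 28 and 25 UMIs per cell at E16.5, E18.5 and P0, and 1 UMI in the 3 adult members that had any. Pax7 and Myf5 were found together in 32.9%, 53.7%, 45.0% and 63.3% of members, and Pax7 and Myog together in 7.94%, 7.86%, 7.96% and 2.04%. After every cell was thinned to 2000 UMIs the Pax7 shares were 11.3%, 19.3%, 13.9% and 55.1% and the Myog shares 42.7%, 24.1%, 26.6% and 2.04%. These members were the ones picked before thinning. A minimum of 3 UMIs asks for a higher level in a shallower cell, and adult members were the shallowest. The adult levels and shares of the rule genes are therefore tied to the rule, also after thinning. In cells under the authors' endothelial codes, which should lack these genes, a Pax7 UMI was found in 1.41%, 0%, 2.24% and 0.842% of cells, at median depths of 10893, 9992, 10797 and 5331.5 UMIs. A Myog UMI was found in 1.41%, 1.06%, 0.897% and 0% of them. Both genes belong to the rule, so these shares are given as the background only.

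Genes outside the rule also differed between these states. The groups were set by the 4 rule genes in the same cells, so the values are descriptions with no test. Msc (musculin, a helix-loop-helix repressor of muscle differentiation) was at 339 CPM in Pax7-led, 429 in Myf5-led, 150.2 in Myod1-led and 19.6 CPM in Myog-led members at E16.5. The Notch receptor Notch3 was at 77.0, 89.1, 37.8 and 5.50 CPM in the same order, and the Notch target Heyl at 39.2, 40.5, 14.0 and 5.50 CPM. Receptor and target were thus highest where Pax7 or Myf5 led. The Notch ligand Dll1 ran the other way, at 5.11 CPM (2.64 to 8.92) in Pax7-led and 35.3 CPM (30.9 to 40.3) in Myog-led members. At P0 the values were 99.1 against 2.33 CPM for Notch3, 28.6 against 8.65 CPM for Heyl and 6.11 against 43.9 CPM for Dll1, in Pax7-led and Myog-led members. The same direction for these 3 genes was seen at E18.5, where Pax7-led members numbered 46 and Myog-led members 57.

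Surface genes of progenitors divided by state. Vcam1, a cell adhesion molecule of satellite cells, was at 53.2, 92.2 and 124 CPM in Pax7-led and 5.18, 8.20 and 12.3 CPM in Myog-led members at E16.5, E18.5 and P0. Chodl was at 128, 192 and 323 CPM against 9.74, 24.6 and 38.2 CPM, and Fgfr4, a fibroblast growth factor receptor of muscle precursors, at 100.01, 136 and 129 against 41.8, 66.5 and 55.2 CPM. Cdh15 differed less between states, at 89.8, 138 and 110.4 CPM in Pax7-led and 144, 185 and 167 CPM in Myog-led members. Megf10, an engulfment receptor also known from satellite cells, was higher in the Myog-led state, at 90.8, 132 and 126 CPM against 22.1, 30.7 and 36.6 CPM.

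Fusion genes sat in the Myog-led state, where some genes that restrain the cell cycle were also higher, though not confined to it. Mymk (myomaker) was at 166, 206 and 201 CPM in Myog-led members at E16.5, E18.5 and P0, and at 0, 1.23 and 1.88 CPM in Pax7-led members. Mymx (myomixer) was at 659, 389 and 403 against 0.851, 1.23 and 0.470 CPM. Both encode membrane proteins needed for myoblast fusion. Rb1, the retinoblastoma gene that restrains entry into S phase, was at 150.4, 146 and 129.7 CPM in Myog-led and 16.6, 17.2 and 8.92 CPM in Pax7-led members, and Cdkn1a, the p21 cyclin kinase inhibitor, at 262, 251 and 209 against 24.7, 49.2 and 97.2 CPM. The differentiation list of 20 genes summed to 14834, 13918 and 14683 CPM in Myog-led and 8414, 7880.2 and 6924 CPM in Pax7-led members, and Cdkn1c, which encodes the p57 cyclin kinase inhibitor, alone made up 12674, 12038 and 12906 CPM and 7975, 7292 and 6261 CPM of these sums. The summed level of 17 cell cycle genes was highest in Myod1-led members, at 3066, 3579.7 and 2563 CPM, and lowest in Myog-led members, at 1318, 1315 and 1113 CPM, with Pax7-led members at 2839, 2689 and 1427 CPM.

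Sarcomere genes followed the fusion genes. The contractile list held 35 measured genes, mostly of the sarcomere, calcium handling and muscle energy supply, but also Des and the smooth muscle actin Acta2. Its summed level was 10016, 9360.5 and 9416 CPM in Myog-led members and 1502, 1647 and 2180.4 CPM in Pax7-led members. The sum is not specific to skeletal muscle. It was 7927 CPM in P2 at E18.5, 8916 in P2 at P0 and 14438 in adult P4, which are rich in pericyte and smooth muscle message. The codes P1 at E18.5, P3 at P0 and P1 in adults had 3796, 3736 and 2066 CPM. Actc1, the cardiac actin that developing skeletal muscle also makes, was at 2949.9, 3546 and 3253 against 112, 77.4 and 37.1 CPM, and Tnnt2 at 922, 948 and 799 against 20.4, 7.37 and 5.64 CPM. Both proteins of the early sarcomere were thus far lower in message where Pax7 led. Chrna1 of the neuromuscular junction was at 165, 198 and 167 against 2.98, 8.60 and 3.76 CPM. At E16.5 the same division ran between the codes, where Mymx was at 861 CPM in members of P-2 and 26.2 CPM in members of P1i.

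**Figure D3:**
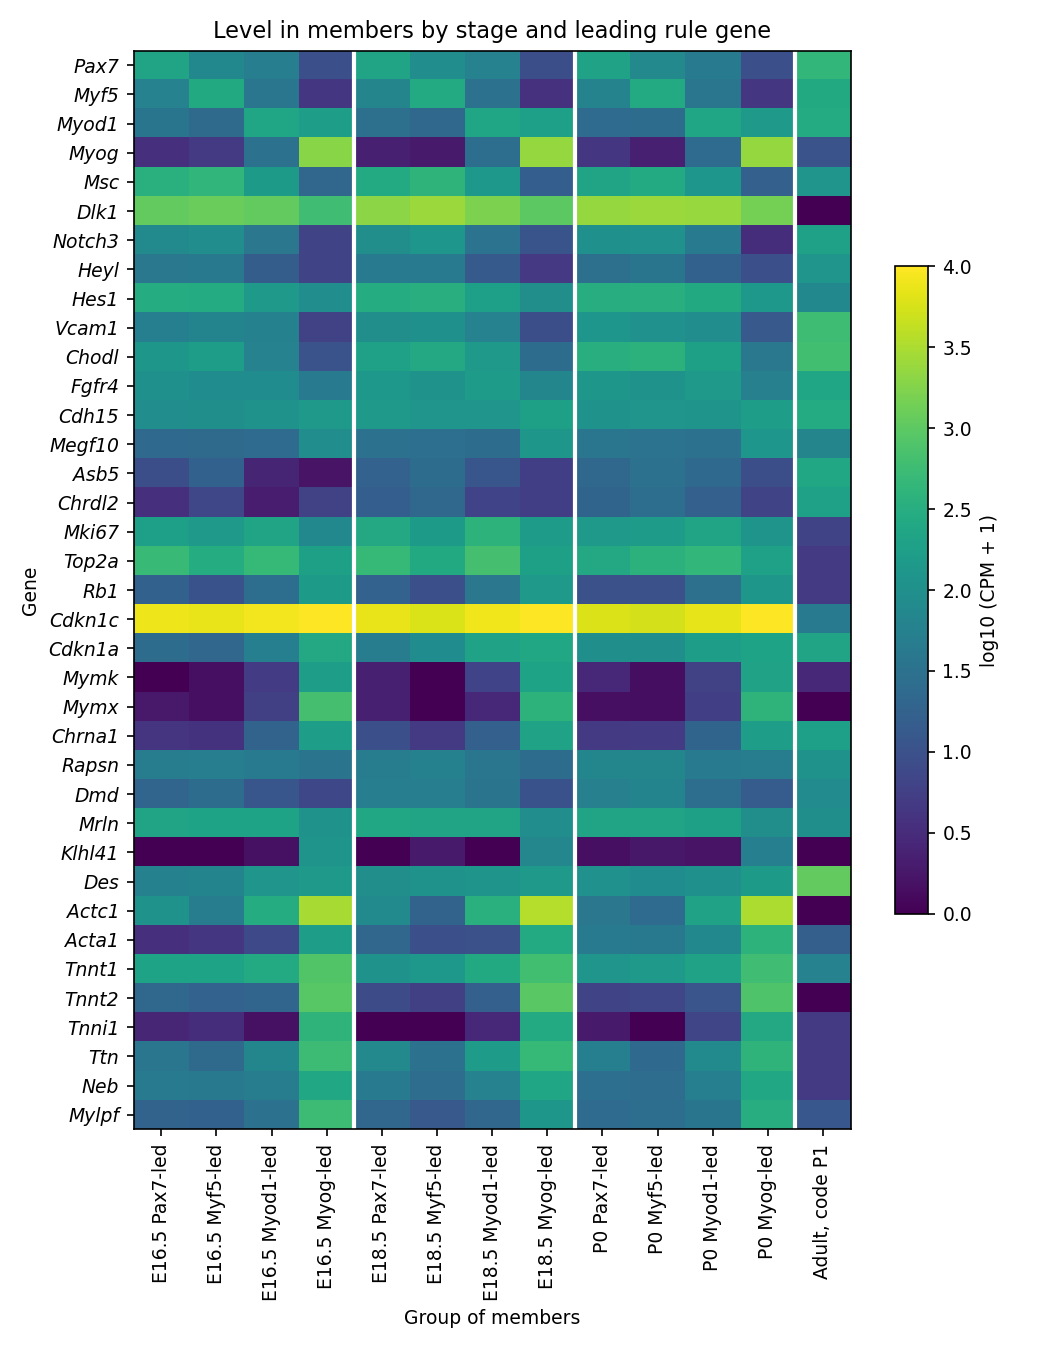
Level of genes (rows) in members grouped by stage and leading rule gene, with adult members of code P1 in the last column, as log10 of CPM plus 1 (color scale). Msc, Notch3 and Vcam1 were low and Mymx, Actc1 and Tnnt2 high in the Myog-led columns of E16.5, E18.5 and P0, and the adult column combined high Pax7, Vcam1 and Des with Mymx, Actc1 and Tnnt2 at 0.

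The label was checked against genes that did not enter the rule. For Myog-led members, the fusion and sarcomere message given above describes differentiating muscle rather than progenitors. Members and the other stromal cells of the same library were compared by the ratio of their CPM, over genes with at least 50 CPM and 10 UMIs in the higher group, and a gene was called where the ratio reached 4. Since the rule was applied to these same cells, the calls are a description. At E16.5, 103 of 2975 genes (3.46%) were higher and 315 (10.6%) lower in members. At E18.5, 105 of 3111 (3.38%) were higher and 217 (6.98%) lower, and at P0 103 of 2971 (3.47%) and 238 (8.01%). In adults, 103 of 3449 (2.99%) were higher and 124 (3.6%) lower, and with the members of P1 alone 155 of 3514 (4.41%) and 393 (11.2%). A set of 20 genes was called higher at all 4 stages, including Cdh15, Chrna1, Des (desmin, the muscle intermediate filament), Fgfr4, Msc, Mrln (myoregulin, a micropeptide of the calcium store) and Jsrp1 (a protein of the junctional sarcoplasmic reticulum). Another 65 were called higher at E16.5, E18.5 and P0, and 72 in adults and at no other stage. Mitochondrial and ribosomal protein genes took 40.6%, 36.9%, 39.3% and 27.5% of UMIs in members against 32.1%, 27.9%, 29.2% and 15.8% in other stromal cells, and with both kinds of gene left out of the totals 192, 188, 188 and 150 genes were higher and 335, 195, 230 and 120 lower. That scaling moved the median log2 ratio over the other genes tested from -0.03, 0.12, 0.06 and 0.07 to 0.16, 0.32, 0.28 and 0.28, and the share of calls that were higher from 24.6%, 32.6%, 30.2% and 45.4% to 36.4%, 49.1%, 45.0% and 55.6%.

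The genes with the highest ratios differed between the 3 earlier stages and adults. Cdh15 was at 119, 143, 129 and 211 CPM in members and 2.39, 1.15, 2.69 and 2.75 CPM in other stromal cells at the 4 stages, which is 49.8-fold, 124-fold, 48.1-fold and 76.7-fold. Mymx led at the 3 earlier stages, at 311, 107 and 122 CPM in members and below 1 CPM in other stromal cells. Tnnt2, Actc1 and Ttn (titin) came next at E16.5 and E18.5, followed among others by Vgll2, a cofactor of TEAD factors, and Rbm24, a splicing regulator of muscle. Vgll2 was at 197, 130.2 and 108 CPM and Rbm24 at 230.2, 144 and 139 CPM in members. In adults Chrna1 led at 128 CPM (105 to 154) in members against 0.582 CPM elsewhere, followed by Asb5 at 181 CPM (154 to 211) and by Edn3, which encodes endothelin 3, at 119.8 CPM (97.9 to 145). Des stood at 818 CPM (759 to 880.1) against 18.8 CPM. Jsrp1, P2ry14, Gal (galanin), Fgfr4 and Drp2, a dystrophin-related protein, were also among the 10 highest adult ratios.

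The same calls were counted by gene list, to be set beside the 3.46%, 3.38%, 3.47% and 2.99% of all genes called higher and the 10.6%, 6.98%, 8.01% and 3.6% called lower at the 4 stages. Of the contractile genes tested, 15 of 17, 11 of 13, 8 of 15 and 1 of 5 were called higher in members, with a median log2 ratio over the list of 3.56, 3.84, 2.78 and -0.15. The other adult stromal cells included code P5, a cluster of 21 cells with 130788 CPM of the contractile list. Without P5 the adult list median was 0.79 over 4 genes tested, 102 genes were higher and 123 lower, and Acta1, the skeletal actin, turned from lower in members, at 10.4 against 60.5 CPM, to 10.4 against 4.65 CPM. The other P0 cells included most of code F3i, which had 930 cells and 6 members. It held Acta1 at 539 CPM and Mylpf, a fast myosin light chain, at 389 CPM, against 133 and 100 CPM in P3. At E18.5 the other cells included most of code F3i, with Acta1 at 91.9 and Mylpf at 85.0 CPM against 83.2 and 45.0 CPM in P1. At E16.5 they included most of code F1, with 48.1 and 87.9 CPM. The part of these codes in the values of their stages was not tested. Of the differentiation genes, 6 of 10, 5 of 9, 6 of 10 and 5 of 9 were higher and 0 lower, and of the surface and signalling genes of progenitors 3 of 8, 5 of 11, 5 of 11 and 9 of 14 were higher and 2, 2, 1 and 0 lower. The cell cycle list had 5 of 15, 0 of 15, 4 of 14 and 0 of 2 called higher. A gene that reached the minimum of 50 CPM through the members alone had to be higher, so these counts describe the lists and no test was made.

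Markers of other cell types were present in the pooled message of members. Cartilage markers summed to 1756, 8029, 6564 and 10823 CPM in members at the 4 stages, against 19248, 45703, 38996 and 36712 CPM in other stromal cells, and all 7 were called lower at the 3 earlier stages, beside 10.6%, 6.98% and 8.01% of all genes tested. Fibroblast markers summed to 858, 2746, 2553 and 6257 against 8033, 11528, 14692 and 29552 CPM, and bone markers to 9.67, 16.9, 12.7 and 252 against 114, 103, 106 and 4072 CPM. Blood markers were at 1.40, 0.497, 1.39 and 48.4 CPM, with the leukocyte gene Ptprc at 0.0738, 0, 0 and 0 CPM. Pericyte and smooth muscle markers were higher in members, at 638, 1011, 1350.3 and 1479 against 316, 436, 473 and 789.8 CPM. The members of that list called higher at E18.5 and P0 were Acta2, Tagln and Notch3, of which the first 2 encode actin and actin-binding proteins of smooth muscle that immature skeletal muscle cells also make. Cspg4 (NG2) was called lower at E16.5, E18.5 and P0, at 21.4, 50.2, 44.4 and 72.6 against 155, 234, 195 and 198 CPM at the 4 stages. Rgs5 was at 2.95, 12.2, 17.5 and 81.8 CPM in all members and 0.613, 13.1, 4.84 and 0 CPM in those of the muscle codes, and Myh11 at 0.221, 1.49, 17.1 and 76.0 and 0.153, 1.33, 0.632 and 0 CPM. Both genes were thus much lower inside the codes than over all members at P0 and in adults, whereas Rgs5 at E18.5 was not. In adult P1, cartilage markers were at 1059 CPM, fibroblast markers at 3295 CPM and bone markers at 162 CPM.

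Between E16.5 and E18.5 few genes differed by 4-fold or more within members. Of 2721 genes, 17 (0.625%) were higher and 3 (0.11%) lower at E18.5. The higher genes were led by matrix genes of cartilage and bone. Ucma was at 75.9 and 398 CPM at E16.5 and E18.5, Col2a1 at 1198 and 6065 CPM, Comp at 75.8 and 372 CPM, and Col1a1 at 141 and 683 CPM. These genes were also higher in the other stromal cells at E18.5, by 3.40-fold, 2.63-fold, 2.37-fold and 1.53-fold, and the part of free RNA from those cells was not tested. The lower genes included 2 fast myosin light chains, Mylpf at 272 and 48.0 CPM and Myl1 at 156 and 30.6 CPM. Myl1 and Mylpf differed within the Myog-led state as well, at 326 and 80.2 CPM for Myl1 and 556 and 128 CPM for Mylpf. Of 16 contractile genes tested, 0 were higher and 2 lower, with a median log2 ratio of -0.72 against 0.08 over all genes.

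Between E18.5 and P0 no gene reached this threshold in members. Of 2668 genes, 0 (0%) were higher and 0 (0%) lower by 4-fold or more at P0. Among genes with at least 100 CPM and 50 UMIs in the higher group, the widest ratios were 3.37-fold for the elastin gene Eln, at 37.0 and 125 CPM, and 3.24-fold for the cold-inducible RNA-binding gene Cirbp, at 56.7 and 184 CPM. In the other direction the heat shock gene Hsph1 was 2.44-fold lower, at 158 and 64.5 CPM. Within the muscle codes Eln differed by 2.61-fold and Cirbp by 3.31-fold. Cirbp and Hsph1 moved the same way in the other stromal cells, by 3.13-fold and 3.11-fold.

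Adult members differed most from those of the stage before. Of 3299 genes, 296 (8.97%) were higher and 101 (3.06%) lower in adult than in P0 members, and with the members of P1 and P3 alone 302 of 3225 (9.36%) were higher and 173 (5.36%) lower. Without mitochondrial and ribosomal protein genes in the totals, 303 were higher and 206 lower, so that the share of calls that were higher went from 74.6% to 59.5% and the median log2 ratio over the other genes tested from 0.33 to 0.07. Several genes of high level at P0 were lower in adults. Dlk1, a membrane protein of the Notch ligand family, was at 2114 CPM (2086 to 2143) in P0 and 1 UMI in adult members, Mest at 685 and 21.9 CPM, and Cdkn1c at 8185 CPM (8129.6 to 8242) and 100.2 CPM (80.3 to 124), or 41.5 CPM (26.0 to 62.8) in adult P1. Peg3, another imprinted gene, did not reach 4-fold, at 951 and 386 CPM. In other stromal cells Dlk1 and Cdkn1c were also lower in adults, at 3006 and 5.27 CPM and 2688 and 302 CPM. Of 14 contractile genes tested, 11 were lower and 1, Des, higher, with a median log2 ratio of -3.24 against 0.30 over all 3299 genes tested. Actc1 and Tnnt2, at 1027 and 245 CPM at P0, were at 1 and 0 UMIs in adult members. With the adult level set to 3 UMIs over the group, Tnnt2 was 71.0-fold lower, and the exact upper limit of its adult level was 4.25 CPM. Mymk and Mymx of the fusion machinery were lower too, at 61.4 and 1.15 CPM and 122 and 0 CPM.

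Some genes of the list of surface and signalling genes of progenitors were higher in adult than in P0 members. Of 15 genes of that list tested, 6 were called higher and 0 lower, beside 8.97% and 3.06% of all genes tested, and the other 9 did not reach 4-fold. The 6 were Sdc4, Vcam1 and Cd9, which encode surface proteins, and Asb5, Chrdl2 and Heyl, which do not. Sdc4 (syndecan 4) was at 43.2, 124, 152 and 1509 CPM at the 4 stages, and other stromal cells had 342, 519.8, 585 and 933 CPM. Vcam1 was at 31.8, 66.1, 75.5 and 442 CPM in members, Chrdl2, a secreted antagonist of bone morphogenetic proteins, at 3.99, 12.2, 17.0 and 142 CPM, and Asb5, an ankyrin-repeat protein, at 5.39, 14.2, 21.5 and 181 CPM. All 3 were highest in adult members and lowest at E16.5. Des ran at 109.9, 113 and 113 CPM before and 818 CPM in adults. Within adult P1 the levels were 565 CPM (503 to 633) for Vcam1, 616 CPM (551 to 687) for Chodl, 1099 CPM (1011 to 1192) for Des and 28.3 CPM (15.8 to 46.6) for Calcr, the calcitonin receptor of quiescent satellite cells. The receptor Notch3 stood at 190.4 CPM (155 to 231) and its target Heyl at 123 CPM (94.6 to 156), whereas Hes1 was at 73.5 CPM (52.3 to 100.5) against 255 CPM in P0 members.

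Cell cycle genes in adult members depended on which members were counted. Over all 98, the list summed to 469 CPM (424 to 517), and 3 of 14 genes tested were called lower than at P0, beside 3.06% of all genes tested. In the 81 members of P1 it summed to 94.2 CPM (69.9 to 124), and in the separate comparison with the P0 members of P3, 12 of 14 were called lower, beside 5.36% of all genes. Mki67, the proliferation marker, was at 150.0 CPM in P0 members and at 5.65 CPM (1.17 to 16.5) in adult P1, where it rested on 3 UMIs, and Top2a at 306 CPM and 3.77 CPM (0.457 to 13.6). Cyclin D1, encoded by Ccnd1, was higher in adults, at 40.8 CPM at P0 and 386 CPM (335 to 443) in adult P1. The difference in the cell cycle list between all adult members and those of P1 came from the 17 members outside P1, with 1057 CPM. A Mki67 UMI was found in 42.0%, 41.5%, 34.0% and 6.12% of members at the 4 stages, and after thinning to 2000 UMIs in 15.5%, 21.5%, 12.9% and 2.04%. Cells under the endothelial codes, which can also divide, had unthinned shares of 23.9%, 19.1%, 14.3% and 2.53%, and thinned shares of 2.90%, 11.4%, 8.65% and 1.27%. Other stromal cells had 12.6%, 14.8%, 10.5% and 5.03%, and 4.20%, 5.88%, 4.16% and 1.63% after thinning. Over all 98 adult members the share was thus close to that of the other stromal cells, which was also lowest in adults. Before thinning it rested on 6 cells, and it was not split by code. Of the 44 Mki67 UMIs of adult members, 3 lay in P1.

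The genes furthest above P0 in all adult members came partly from the cells outside P1. Bglap2, an osteocalcin gene of bone, had 551 UMIs in adult members and 1 in those of P1, and Plvap, of fenestrated endothelium, 104 and 5. S100a4, a calcium-binding protein of mesenchymal cells, was at 786 CPM (712 to 865) in adult P1 and 2.53 CPM in P0 P3, and in other stromal cells it was at 781 CPM in adults and 41.1 CPM at P0. Within these codes Angptl7, an angiopoietin-like secreted protein, was highest by ratio, at 226 CPM against 0.421 CPM, and P2ry14, a receptor for UDP-sugars, was at 183 against 0.737 CPM. H19, the imprinted noncoding RNA, was lower, at 9.42 against 1004 CPM. Of 14 immediate early genes tested, 6 were called higher in adult than in P0 members and 8 did not reach 4-fold, beside 8.97% of all genes called higher. Among the 6 were Fos at 945 and 3838 CPM and Jund at 647 and 3101 CPM. That list summed to 3069, 5069, 5050.3 and 18708 CPM in members and 9134, 12101, 11362 and 14157 CPM in other stromal cells, so that members lay below their neighbours at the 3 earlier stages and above them in adults.

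**Figure D4:**
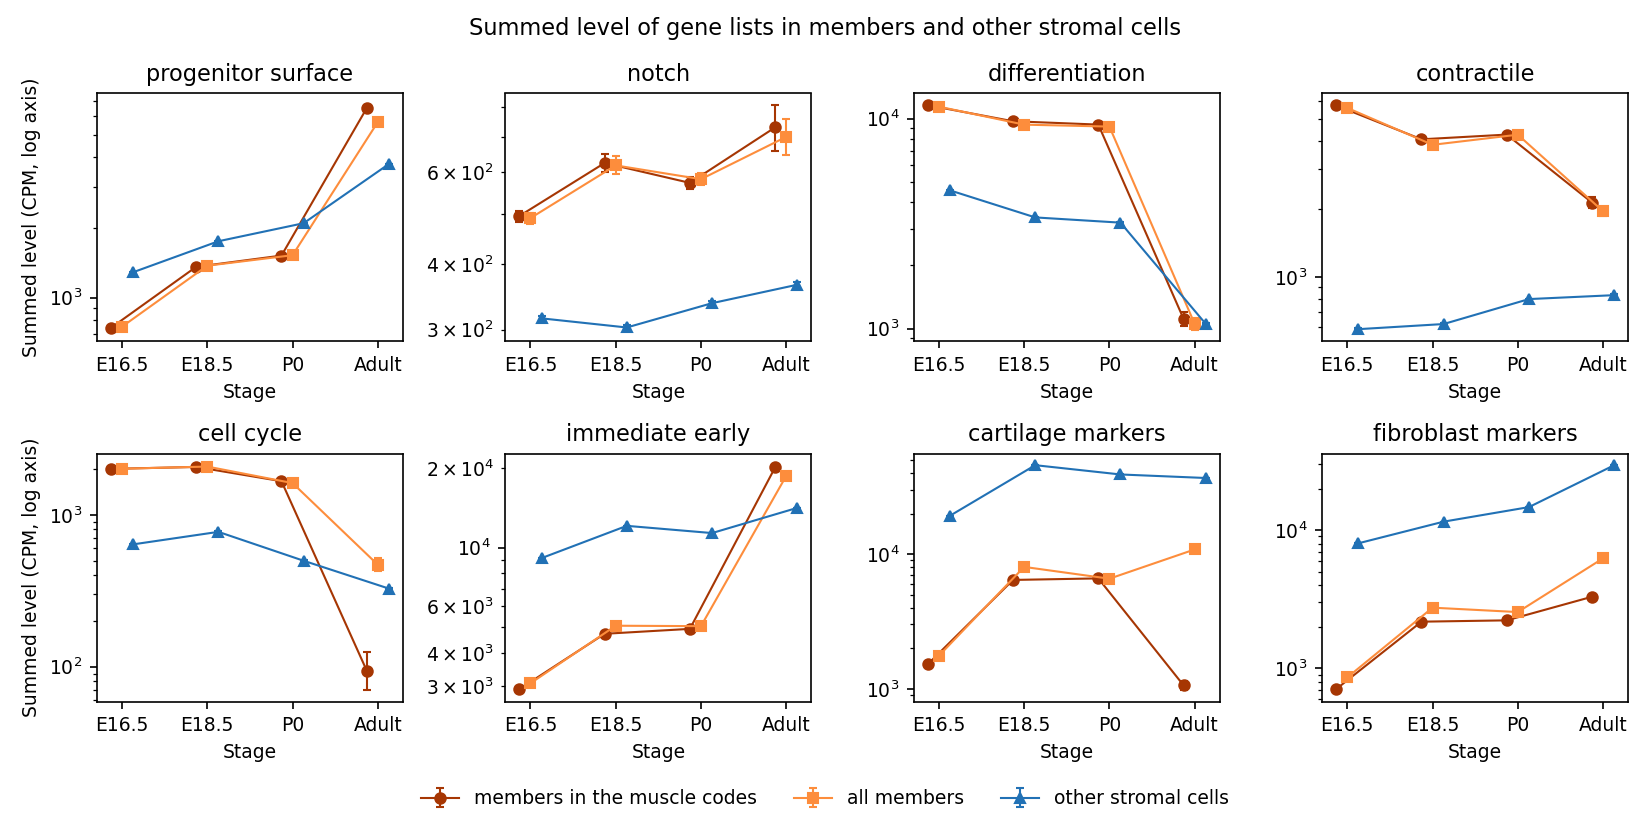
Summed level of 8 gene lists (y axes, CPM, log scale) by stage (x axes) in members of the muscle codes, all members and other stromal cells, with exact 95% Poisson intervals. Contractile and differentiation sums were high in members at the 3 earlier stages. In the differentiation sum, Cdkn1c alone held 8388 and 8185 CPM in E18.5 and P0 members, and 2688 CPM in other P0 stromal cells. The list headed progenitor surface (surface and signalling genes of progenitors) was highest in adult members, and the cell cycle and cartilage lines of all adult members and of those in the muscle codes separated.

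Of 17 factors named for support or restraint of blood stem cells, 7, 7, 10 and 11 were tested, of which 0, 1, 1 and 1 were called higher and 4, 2, 2 and 3 lower in members than in other stromal cells, with the shares over all genes as given above. Cxcl12, the chemokine that retains these cells in BM, was at 5.54, 21.1, 14.3 and 111 CPM in members at the 4 stages, against 53.5, 42.9, 57.2 and 892 CPM in other stromal cells. Kitl, which encodes stem cell factor, was at 2.44, 10.4, 6.17 and 16.1 against 22.2, 23.9, 18.9 and 57.6 CPM, and Spp1 (osteopontin) at 4.21, 7.45, 14.5 and 108 against 189.5, 107, 236 and 2441 CPM. Members were below the other cells for these 3 genes at every stage. Igf1 was at 32.5, 93.7, 112 and 108 against 217, 134, 219 and 282 CPM, and Igf2 at 47.0, 44.2, 53.2 and 0 against 141, 115, 128 and 0.253 CPM. The insulin-like growth factor receptor Igf1r differed less, at 85.5, 126, 111 and 119.8 against 78.9, 102, 93.0 and 72.4 CPM. Mdk (midkine), a heparin-binding growth factor, was among the more abundant of these factors in members, at 266, 175, 231 and 33.4 against 353, 130.2, 169 and 45.7 CPM, and its relative Ptn was at 108, 63.6, 118 and 12.7 against 592, 370.4, 514 and 125 CPM. Tgfb2 was at 63.5, 95.4, 97.2 and 149.7 against 62.1, 55.7, 73.7 and 133 CPM and Bmp4 at 11.2, 48.5, 51.9 and 124 against 18.3, 19.2, 32.2 and 55.5 CPM. In adult P1 the levels were 82.9 CPM for Cxcl12, 7.54 for Kitl, 71.6 for Igf1, 192 for Tgfb2 and 158 for Bmp4. Vcam1 was called higher in members at E18.5, P0 and in adults. Of the receptors through which muscle precursors receive growth signals, Met, the receptor for hepatocyte growth factor, was at 14.3, 17.9, 19.5 and 41.5 against 2.00, 2.44, 3.95 and 4.27 CPM and Fgfr4 at 68.9, 117, 106 and 167 against 6.14, 7.48, 5.57 and 2.55 CPM. Pdgfra, which marks fibroblasts and mesenchymal progenitors, was called lower in members at all 4 stages, at 6.28, 12.7, 13.6 and 11.5 against 60.8, 57.4, 78.8 and 95.2 CPM, and at 0 UMIs in adult P1.

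Antibody counts were not used by the rule. Of 29 antibodies, the 4 with at least 10000 counts in each stromal library were used. A cell was scored as positive where its centered log ratio (CLR) was above 1. The CLR was the log of 1 plus the ratio of the count to a mean level of that antibody in the library. This level was the geometric mean of the counts plus 1. For CD73, the product of Nt5e, 5.04% (3.63 to 6.81), 6.99% (4.05 to 11.1), 9.58% (7.26 to 12.3) and 9.18% (4.29 to 16.7) of members were positive at the 4 stages, against 32.1%, 23.9%, 23.1% and 25.4% of other stromal cells. For CD140a, the product of Pdgfra, the shares were 4.54% (3.20 to 6.23), 4.80% (2.42 to 8.43), 6.69% (4.75 to 9.10) and 4.08% (1.12 to 10.1) against 29.97%, 14.6%, 17.0% and 18.9%. For both antibodies, a smaller share of members than of other cells thus lay above a CLR of 1 at every stage. Both mRNAs were lower, with Nt5e at 1.85, 15.2, 8.96 and 49.5 against 28.0, 60.2, 63.9 and 144 CPM. For Ly6A/E (Sca-1) the shares were 6.31%, 6.99%, 5.06% and 6.12% of members against 10.8%, 10.2%, 10.1% and 20.5% of other cells. In adult P1, 0 of 81 members were positive for Ly6A/E, which allows up to 3.70% by the same limit of 3 counts, with an exact upper limit of 4.45%, so that the 6 positive adult members all lay outside P1. CD31, of endothelial and some blood cells, was positive on 6.18%, 1.75%, 7.05% and 8.16% of members, and on 100%, 93.6%, 92.8% and 97.98% of endothelial cells. In adult P1 the positive shares were 4.94% for CD73, 1.23% for CD140a and 2.47% for CD31. Counts were small, with a median of 8, 7, 11 and 20 per member for CD73 against 26, 14, 15 and 21 in other stromal cells, and 2, 0, 2 and 4 against 3, 1, 3 and 4 for CD140a. The adult medians were thus nearly equal, and the shares move with the level chosen.

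**Figure D5:**
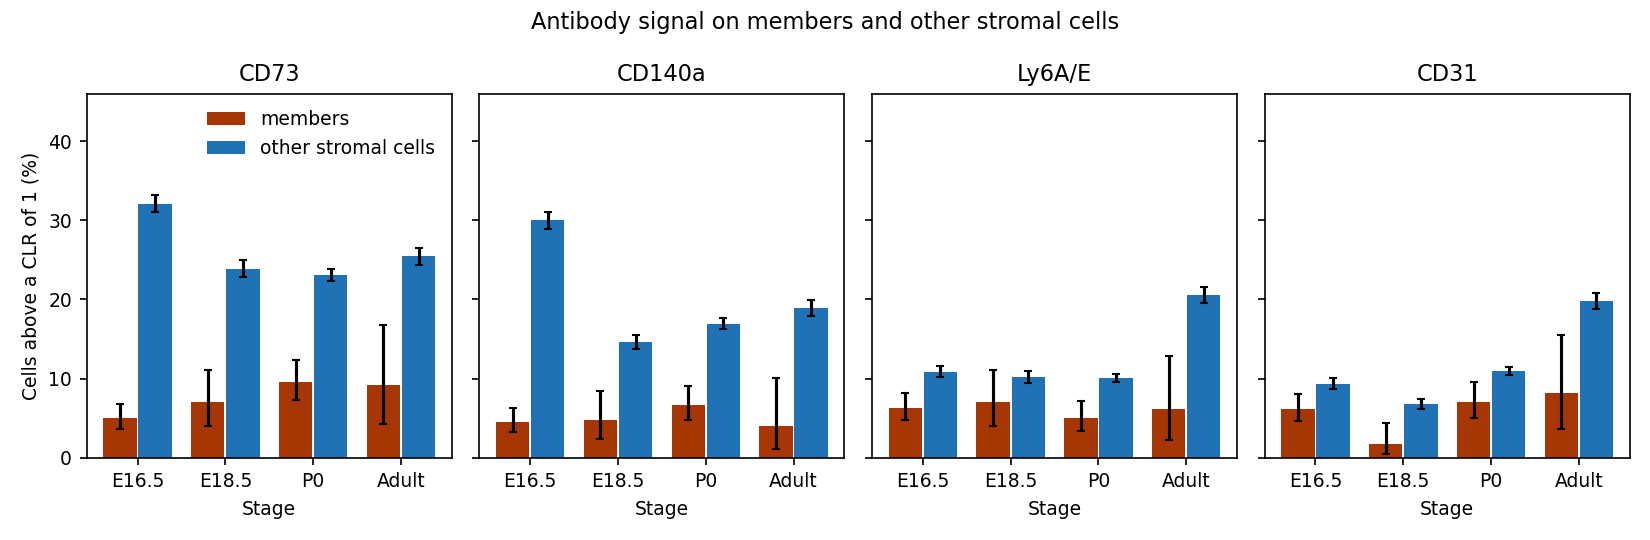
Share of cells above a CLR of 1 (y axis, percent) for 4 antibodies in members and other stromal cells by stage (x axes), with exact 95% Clopper-Pearson intervals. CD73 was above this level on 5.04% to 9.58% of members and 23.1% to 32.1% of other stromal cells.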

How the data were processed

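Cells of CD45-Ter119- stroma and Lineage-Kit+ HPs were profiled by 3′ single-cell RNA-Seq with antibody tags. The authors counted reads with Cell Ranger 3.1.0 on mm10 and filtered and clustered cells in R 4.0 with Seurat 3.1.5, as given in their methods and the submitters' processing notes. They removed cells with few UMIs, a high mitochondrial share or, as a guard against doublets, the highest gene or UMI numbers of a sample. The deposited matrices hold raw UMI counts per gene (20275 genes) and raw antibody counts per cell, and the deposited metadata give each cell's library, compartment, stage, cluster code and mitochondrial fraction, printed here as percent. Another 9 metadata columns were not used.

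Counts were summed over the cells of each group and scaled to CPM, with exact Poisson intervals for levels and exact Clopper-Pearson intervals for shares at 95%. With 1 stromal library per stage no test was run, and genes were called by a 4-fold CPM ratio, with totals under 3 UMIs set to 3. No doublet caller and no correction for free RNA was applied. Antibody counts were transformed by CLR as Seurat does, and thinning to 2000 UMIs used a seed of 1. The computations used Python 3.11.15, numpy 2.4.6, scipy 1.17.1, pandas 2.3.3 and matplotlib 3.10.9, and the scripts were tested on simulated data. Promoter sequence came from RefSeq on GRCm38.p6, the same assembly as mm10.

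The members and the 20 gene lists, 223 of whose 224 genes were measured, were chosen with earlier results of these data known. Named genes were the 10 with the highest ratio to other stromal cells and the 5 highest in each direction between neighbouring stages, at 100 CPM and 50 UMIs or more in the higher group and without mitochondrial, ribosomal and rule genes and Gm42418, besides the genes of the lists. Not every gene that this rule names is reported here. A gene named from other codes or from the whole set of shared calls was chosen after its values were seen. Alternatives changed the UMI minimum, the genes summed, depth, scaling, the CPM minimum, the cells included and the CLR level.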

Additional observations from a re-analysis of the deposited data

Results flagged for a closer look

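HP libraries served as a background, and cells that met the rule were found in 1 of them. In E16.5 HP replicate 2, 4 of 4752 cells (0.0842%, exact Clopper-Pearson 95% interval 0.0229 to 0.215) met the rule, and the other 4 HP libraries held none. All 4 carried the deposited code UD2, which held 65 cells at E16.5. They had 11891, 17388, 21525 and 9685 UMIs and 4, 3, 15 and 4 rule UMIs. Cdh15 was found in each of them, at 4, 1, 4 and 3 UMIs, and Des at 3, 1, 11 and 4 UMIs. Ptprc, the pan-leukocyte gene, was at 0 in all 4, and Kit, which encodes the receptor used for the HP sort, at 0, 5, 0 and 0 UMIs. How these cells came into the HP sort was not tested.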

How the results depend on the processing

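No paired analysis was possible because each stage had 1 stromal library, so the stages share the single number 1 and fewer than 2 pairs. For the same reason no replicate could be left out. The share of members was highest at E16.5 and lowest in adults under every UMI minimum and depth tried. With 2 or more UMIs the shares that moved beyond their interval were 10.7% at E16.5, 4.68% at P0 and 1.98% in adults, P3 held 92.6% of P0 members, and Myog led in 40.8% at E16.5. With 5 or more UMIs the shares were 7.37%, 2.41%, 2.75% and 1.16% at the 4 stages, P1i held 54.8% of E16.5 members, Myog led in 57.9%, 35.0% and 40.2% at the earlier stages, and Pax7 in 12.4% at E16.5. Without Myog in the sum the shares were 7.62%, 2.94% and 3.29% before adulthood, P1i held 75.1% of E16.5 members, Myog led in 31.3%, 14.9% and 16.2%, Pax7 in 22.6% at E16.5 and 25.1% at P0, and 1 gene was lower at E18.5 than at E16.5. Thinned to 2000 UMIs, the shares were 3.23%, 0.830%, 1.09% and 0.535%, the leading codes held 16.3%, 100%, 99.2% and 93.9%, Myog led in 93.9%, 78.8% and 83.1%, Pax7 in 1.52%, 1.92%, 5.38% and 39.4%, P0 members had 161 genes higher and 451 lower than other cells, and 4 were higher and 7 lower at P0 than at E18.5.

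Counts of genes past 4-fold depended most on the CPM minimum. At 100 CPM, 51, 52, 48 and 53 genes were higher in members than in other cells at the 4 stages, and 186, 144 and 74 were lower at E16.5, E18.5 and in adults, with 10 higher at E18.5 than at E16.5 and 167 higher and 51 lower in adults than at P0. With no minimum, 536, 1289, 918 and 2694 were higher and 1936, 879, 1201 and 323 lower in members, with 138 and 33 between E16.5 and E18.5, 43 and 13 between E18.5 and P0, and 744 and 261 between P0 and adults. Without mitochondrial and ribosomal protein genes, 192, 188 and 188 were higher in members at the 3 earlier stages, 1 at P0 against E18.5, and 206 lower in adults than at P0. Taking all cells of the leading code, 411 were lower in adult members than in other cells, 11 higher at E18.5 than at E16.5, 1 higher at P0 than at E18.5 and 159 lower in adults than at P0. Without cells above the 95th percentile of UMIs, 195 were lower in adult members and 27 higher at E18.5 than at E16.5, and without members holding a Myog UMI, 2 were higher at P0 than at E18.5. In members of the muscle codes, an alternative chosen after seeing the data, adults had 155 higher and 393 lower genes against other cells and 173 lower against P0, and 1 gene was higher at P0 than at E18.5. Leaving code P5 out of the other adult cells, also chosen after seeing the data, gave 102 higher and 123 lower. The other 153 of these shares and counts stayed within their interval or within 1.5 times their count. The cause of these differences was not tested, apart from what each alternative changes by construction.

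Of listed genes called 4-fold apart from other stromal cells, 2003 values kept their direction and call, 139 fell below 4-fold and 18 reversed. Of these 18, 10 were fusion and sarcomere genes at E16.5, such as Mymk and Tnnt2, when all cells of P1i, which leaves out P-2, stood for the members. Adult Acta1 reversed from a log2 ratio of -2.54 to 4.88 with 2 or more UMIs. Summed list levels moved beyond their counting interval in 17 to 32 of 32 cases under each alternative. Of 16 antibody shares in members, 16 moved beyond their interval at a CLR level of 0.5, 13 at 1.5 and 10 with the CLR taken over all stromal libraries. Adult levels in P1 rest on 81 cells, and 3 UMIs there amount to 5.65 CPM. Cell cycle genes in adult members were at 469 CPM with, and 94.2 CPM without, the 17 members outside P1.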

Other observations

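Adult stroma also held a small cluster of cells rich in mature muscle message that the rule did not select. Code P5 had 21 cells, of which 0 met the rule, 6 had 1 or 2 rule UMIs and 15 had none, at a median of 2565 UMIs. The contractile list summed to 130788 CPM (128636 to 132967) in these cells. Acta1, the skeletal actin, was at 47206 CPM, Mylpf, a fast myosin light chain, at 11918 CPM, Mb (myoglobin) at 4834 CPM and Ckm (muscle creatine kinase) at 4518 CPM. Myh2, the heavy chain of fast oxidative fibers, was at 567 CPM and Pax7 at 9.30 CPM. The cluster was singled out after its values were seen. Such message outside the muscle codes was not limited to adults. At P0, code F3i, with 930 cells and 6 members, held Acta1, Mylpf and Ckm at 539, 389 and 112 CPM, against 133, 100 and 14.5 CPM in P3. At E18.5, code F3i held these 3 genes at 91.9, 85.0 and 16.8 CPM, against 83.2, 45.0 and 9.50 CPM in P1. At E16.5, code F1 held them at 48.1, 87.9 and 11.8 CPM. There P-2 had 227, 756 and 35.6 CPM and P1i 3.68, 22.1 and 0.850 CPM. The source of this message was not tested.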
